A study of Danio rerio with 2 samples.

Results

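miR-23, miR-24 and miR-27 were examined in small RNA profiles of zebrafish embryos. The 8 entries belong to 3 miRNA families and were chosen by name alone, as every listed miRNA called mir-23, mir-24 or mir-27 with or without a letter, out of 173 miRNAs listed in all. They are miR-23a, miR-23b, miR-24, miR-27a, miR-27b, miR-27c, miR-27d (listed as mir-27d) and miR-27e. Their identity rests on these names, since the deposited values carry neither sequences nor positions.

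The NGS data held 1 library of hts morphants, called the MO-Tbx5 library here, and 1 library of MO-Ct injected embryos, called the MO-Ct library. The paper lists wild-type AB beside transgenic lines and does not say which line gave these libraries. All embryos were injected at the 1-cell stage and were collected at 48 hpf, about 50 to a library. The labels name 1.5 ng of MO-Tbx5a for the first group and 1.5 ng of control morpholino for the second, while the paper describes MO-Tbx5a together with MO-Tbx5b and a matching amount of MO-Ct. The hts embryos, so named for their string-like heart, were picked by eye for that phenotype, so the library shows affected morphants and not all injected embryos. A morpholino is an antisense oligomer that lowers, for a few days, the protein made from the transcript it binds. Levels are given in rpm, the reads of a miRNA for every 1000000 reads assigned to the listed miRNAs, and FC is the rpm of the MO-Tbx5 library divided by that of the MO-Ct library. The reads behind the rpm were 580312 in the MO-Tbx5 library and 1150157 in the MO-Ct library. With 1 library per condition there was no replicate check and no test between conditions. The 95% intervals below are exact Clopper-Pearson intervals of read counts, which cover counting error only and compare these libraries. Of 10 miRNA families that mark muscle, nervous system, liver, erythroid cells, endothelium and the early embryo, 10 were above 0 in both libraries. Only 6.36% of the 173 listed miRNAs were at 0 in the MO-Tbx5 library, so nearly any 10 families would have given this count.

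A miRNA binds messenger RNAs through its seed, the bases near its 5′ end, and lowers their translation or stability. miR-23, miR-27 and miR-24 are cut from shared primary transcripts, so the hairpins of a cluster are made together, although each mature miRNA can be processed and degraded at its own rate. In mammalian endothelium miR-23 and miR-27 promote the sprouting of vessels by repressing inhibitors such as Sprouty2 and Semaphorin 6A. In zebrafish embryos miR-23 is known to restrict the formation of the heart valve cushions by repressing hyaluronan synthase 2 (has2). In mouse, miR-24 acts on the survival of endothelial cells and cardiomyocytes, and miR-27b represses Mef2c in the heart. All 3 families are also made outside the heart and vessels. Because whole embryos were pooled, a lower level from fewer cells of a type and one from less RNA per cell cannot be told apart.

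The 8 entries name 13 hairpin loci, and 13 of these were found among the zebrafish genes that RefSeq annotates on GRCz12tu. That annotation held 15 genes of the 3 families, arranged as 5 clusters on different chromosomes, and each of the 5 clusters held 1 gene of each family in the order miR-23, miR-27, miR-24 or its reverse. The clusters were mir23a-1 with mir27e and mir24-4, mir23a-2 with mir27c and mir24-2, mir23a-3 with mir27a and mir24b, mir23b with mir27d and mir24-1, and mir23b-2 with mir27b and mir24-3. The cluster of mir27b lay within aopep, a protein-coding gene for an aminopeptidase. The cluster of mir27d lay within the bounds of apba1b, an adaptor protein gene, and of a long non-coding RNA gene. The cluster of mir27a lay inside a long non-coding RNA gene that has no name of its own. The clusters of mir27e and mir27c lay wholly within no gene, but each overlapped at least 1 long non-coding RNA gene. The miR-27 letter therefore differed from cluster to cluster, so each miR-27 entry belonged to 1 cluster. The miR-24 entry joined 4 loci and the miR-23a entry joined 3 loci, so these entries carry reads of several clusters. The reads of miR-23b could come from mir23b or from mir23b-2, which share the name and lie in different clusters.

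In the MO-Ct library miR-27b was the highest of the 8 entries. Its level was 1517 rpm there and 1611 rpm in the MO-Tbx5 library, from 1745 and 935 reads. It ranked 57th and 54th of the 173 miRNAs, so it was a miRNA of middle abundance in both libraries. miR-24 followed with 1006 rpm in the MO-Ct library and 1184 rpm in the MO-Tbx5 library, from 1157 and 687 reads. In both libraries the intervals of miR-27b and miR-24 were apart, and both stood far above the other 6 entries.

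miR-23b was at 202 rpm in the MO-Ct library and 214 rpm in the MO-Tbx5 library, from 232 and 124 reads. miR-27a was at 169 and 167 rpm in the same order, from 194 and 97 reads. miR-27c was at 168 and 140 rpm, from 193 and 81 reads. In each library neighbours in the order miR-23b, miR-27a, miR-27c had overlapping intervals, while in the MO-Tbx5 library the ends of that order, miR-23b (178 to 255 rpm) and miR-27c (111 to 173 rpm), were apart.

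miR-23a, the other form of the miRNA known from the valve cushions, was at 105 rpm in the MO-Ct library and 99.95 rpm in the MO-Tbx5 library, from 121 and 58 reads. Its interval was apart from that of miR-27c in the MO-Ct library and overlapped it in the MO-Tbx5 library. miR-27e was at 38.3 and 32.7 rpm, from 44 and 19 reads, below miR-23a in both libraries. The order of the 8 entries was the same in both libraries. Only miR-27b, miR-24 and miR-23b, 3 of the 8, were above 200 rpm in both.

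**Figure D1:**
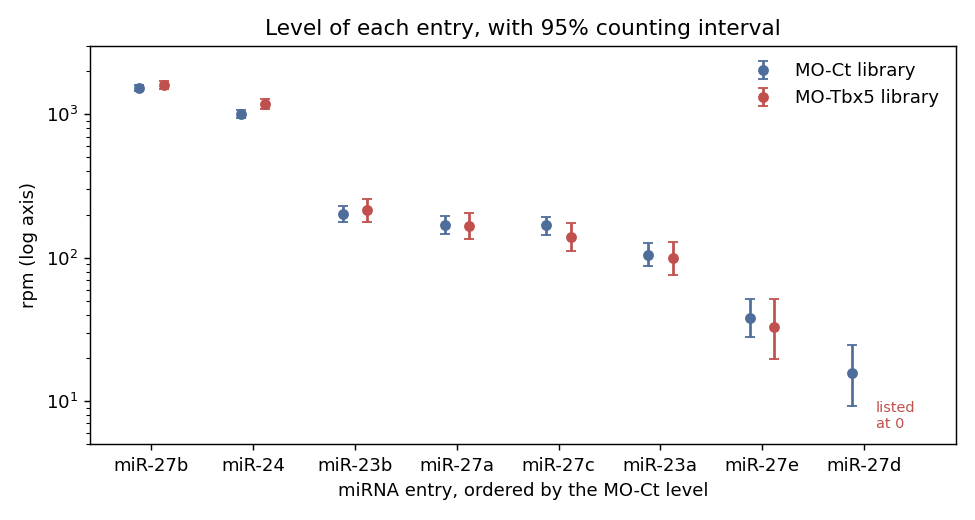
Level of the 8 entries in rpm on a log axis, ordered by the MO-Ct level, with 1 point per library and bars for the 95% counting interval. miR-27b and miR-24 lie at 1006 rpm or higher in both libraries, the next 4 entries lie between 99.95 and 214 rpm, and miR-27d is listed at 0 rpm in the MO-Tbx5 library.

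The 3 families of a cluster were not found at equal levels. Summed over its 5 entries, miR-27 had 1908 rpm in the MO-Ct library and 1951 rpm in the MO-Tbx5 library. miR-23, summed over its 2 entries, had 307 and 314 rpm. The level of miR-27 was thus 6.22 times that of miR-23 in the MO-Ct library (95% interval 5.55 to 6.97) and 6.22 times in the MO-Tbx5 library (5.31 to 7.31), although the annotation holds 1 gene of each family per cluster.

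Sequencing small RNAs favours some sequences in ligation and amplification, so a difference in level between families within a library was not calibrated, while the same family can be compared between the libraries. Of the 3704 reads of the 3 families in the MO-Ct library, miR-27 took 59.2% (57.6% to 60.8%), miR-24 took 31.2% (29.7% to 32.8%) and miR-23 took 9.53% (8.60% to 10.5%). Of the 2001 reads in the MO-Tbx5 library, miR-27 took 56.6% (54.4% to 58.8%), miR-24 took 34.3% (32.3% to 36.5%) and miR-23 took 9.10% (7.87% to 10.4%). The share of each family had overlapping intervals in both libraries, but such overlap is no test of equal shares. These shares do not depend on the total of a library.

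The ratio of 2 FC, which also leaves the totals out, was computed for the 3 pairs of families, and 1 of the 3 intervals excluded 1. The FC of miR-27 was 0.869 times that of miR-24 (0.770 to 0.980). miR-24 against miR-23 gave 1.15 (0.937 to 1.42), and miR-27 against miR-23 gave 1.00 (0.822 to 1.22). The MO-Tbx5 library thus held slightly fewer miR-27 reads for each read of miR-24 than the MO-Ct library. These 3 intervals were not adjusted for their number. By name the miR-24 entry leaves out mir24b, whereas the miR-27 sum covers every cluster. Whether reads of mir24b entered the miR-24 entry under the 2 allowed mismatches was not checked.

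Within the miR-27 family, miR-27b took most of the reads. It held 79.5% of the miR-27 reads in the MO-Ct library (77.8% to 81.2%) and 82.6% in the MO-Tbx5 library (80.3% to 84.8%). miR-27a held 8.84% (7.69% to 10.1%) and 8.57% (7.0% to 10.4%). miR-27c held 8.80% (7.64% to 10.1%) and 7.16% (5.72% to 8.82%), and miR-27e held 2.01% (1.46% to 2.68%) and 1.68% (1.01% to 2.61%). The intervals of the 2 libraries overlapped for each of these 4 entries, which is no test of equal shares. miR-27d held 0.82% (0.487% to 1.29%) in the MO-Ct library. It was listed at 0 in the MO-Tbx5 library, a 0 that is not read as a lower level, as set out below. Of the 5 clusters, the one within aopep was therefore the one whose miR-27 was read most, in both libraries. The miR-27 letters have near-identical mature sequences, and the authors' annotation allowed 2 mismatches, so the division of reads between letters was not checked, and the sum over the family does not depend on it.

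**Figure D2:**
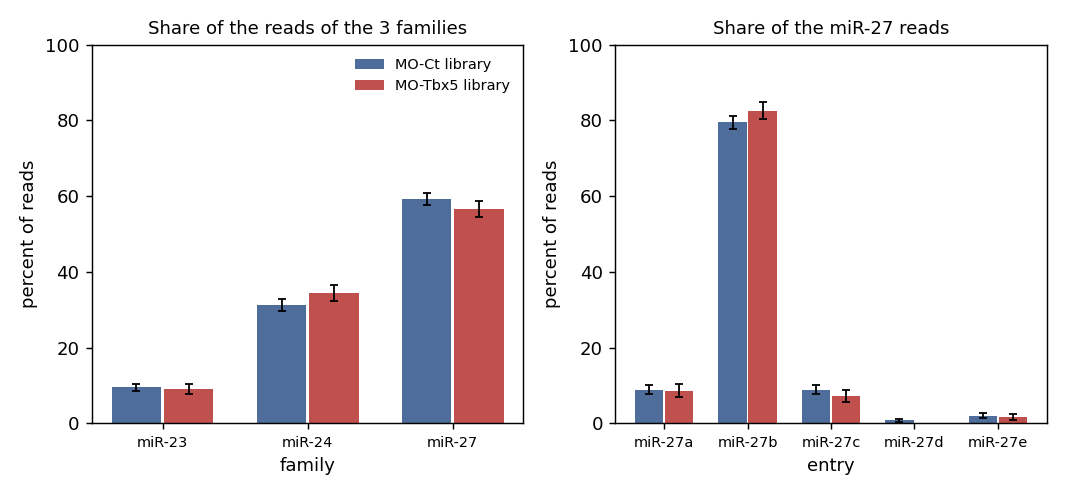
Percent of reads taken by each family among the 3 families (left) and by each entry within miR-27 (right), with 1 bar per library and error bars for the 95% counting interval. miR-27 takes 59.2% and 56.6% of the reads of the 3 families, and miR-27b takes 79.5% and 82.6% of the miR-27 reads, in the MO-Ct and MO-Tbx5 libraries.

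Within miR-23, miR-23b took 65.7% of the reads in the MO-Ct library (60.5% to 70.7%) and 68.1% in the MO-Tbx5 library (60.8% to 74.8%), and miR-23a took the rest. The 2 libraries did not differ beyond counting error here. The level of miR-27b was 7.52 times that of miR-23b in the MO-Ct library (6.56 to 8.66) and 7.54 times in the MO-Tbx5 library (6.25 to 9.17). This pair has a gene of each in the aopep cluster, and its ratio of levels was close to equal in both libraries. Reads of miR-23b may also come from mir23b in the cluster of mir27d, so the ratio is not that of the aopep cluster alone.

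Between the hts morphants and the MO-Ct injected embryos, the 7 entries with a ratio differed by less than the study's fold threshold of 1.8. The count past it was 0 of 7, beside 11.7% of the 162 miRNAs with a ratio, 1.85% upwards and 9.88% downwards. Among the miRNAs above 200 rpm in each library it was 0 of the 3 entries, beside 3 of 107, or 2.8%. With so few entries a count of 0 is near both shares and does not set the 3 families apart. Of the 7 entries 3 had a FC above 1 as deposited, beside 32.7% of all miRNAs with a ratio. The FC of the 7 ran from 0.832 to 1.18. Their median log2 FC was -0.01, beside -0.16 over all 162 miRNAs with a ratio and -0.14 over the 107 miRNAs that exceeded 200 rpm in each library. The intervals of 6 of the 7 lay wholly inside 1.8-fold in both directions, as did those of 69.1% of all miRNAs with a ratio, and the exception was miR-27e. The interval of miR-27e ended below 1.8 at its upper end but reached past 1.8-fold downwards, so at this depth a lower level of that size could not be told from none for miR-27e.

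miR-24 had the highest FC, 1.18 (1.07 to 1.29), and was the only entry of the 7 whose interval excluded 1. For comparison, 63.6% of all miRNAs with a ratio had an interval that excluded 1, and 17.9% of all miRNAs with a ratio had one above 1. miR-27b had a FC of 1.06 (0.980 to 1.15), and its family sum had 1.02 (0.951 to 1.10). miR-23b had a FC of 1.06 (0.845 to 1.32), and the sum of miR-23 had 1.02 (0.850 to 1.23). Summed, the 8 entries reached 3220.4 rpm in the MO-Ct injected embryos and 3448 rpm in the hts morphants, a FC of 1.07 (1.01 to 1.13). Of the families, only miR-24 had an interval that excluded 1, so this sum does not show the families raised together. It counts miR-27d at its listed 0 in the hts morphants.

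The entries of lower level sat below 1, each with an interval that included 1. miR-27c had the lowest FC, 0.832 (0.634 to 1.08). miR-27e had 0.856 (0.472 to 1.50) from few reads. miR-23a had 0.95 (0.682 to 1.31) and miR-27a had 0.991 (0.768 to 1.27), and both passed above 1, at 1.04 and 1.09, when each FC was divided by the median of those 107 well measured miRNAs.

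The median of the 107 was a FC of 0.910, so an unselected miRNA of fair abundance was a little lower in rpm in the MO-Tbx5 library. Values in rpm are shares of a fixed total, so a change in the most abundant miRNAs shifts the rpm of all others. With the 3 most abundant left out, each FC was divided by 0.907. Relative to the median of the 107, miR-24 was at 1.29 (1.18 to 1.42) and miR-27b at 1.17 (1.08 to 1.26). These were the 2 entries of the 7 whose intervals lay above the median. Among all miRNAs with a ratio the share was 27.2%, so 2 of 7 is near it and does not set the 3 families apart. miR-23b was at 1.16 (0.928 to 1.45), miR-27c at 0.914 (0.696 to 1.19) and miR-27e at 0.940 (0.519 to 1.64) on that scale. The 3 highest entries in rpm were thus also the 3 highest in FC, but the interval of miR-23b included the median. The FC of miR-23b was also not told apart from that of miR-27a or miR-23a. The entries at lower rpm likewise had intervals too wide to place them above or below the median.

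**Figure D3:**
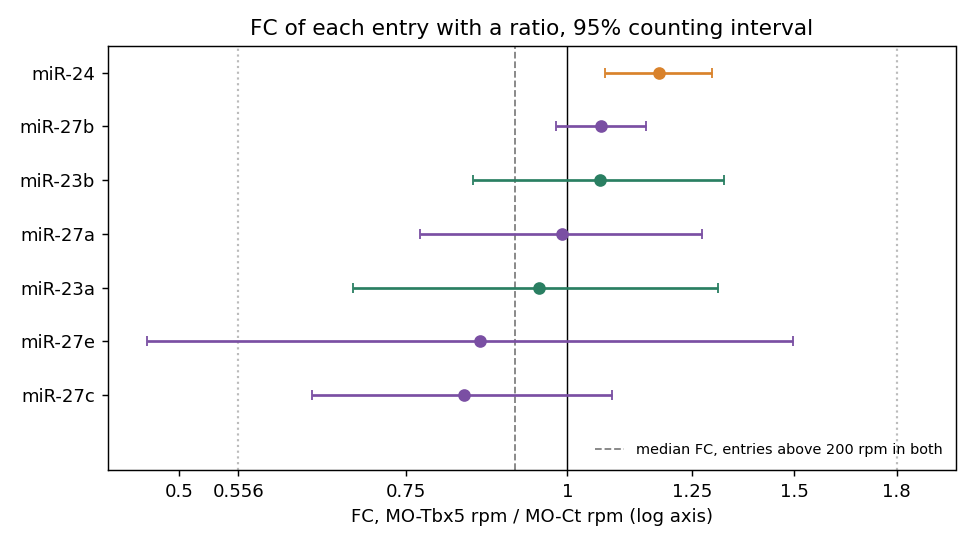
FC of the 7 entries with a ratio on a log axis, with bars for the 95% counting interval, coloured by family. The solid line marks 1, the dashed line the median FC of 0.910, and the dotted lines 1.8-fold in both directions; the interval of miR-24 lies above 1 and that of miR-27e reaches below 0.556.

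The entries were also compared in pairs. Among the 21 pairs of the 7 entries, the ratio of their FC had an interval that excluded 1 in 1 pair, miR-27c against miR-24, at 0.707 (0.529 to 0.938). The intervals were not adjusted for the number of pairs. A count of 1 of 21 is near what unadjusted intervals of this kind would give with no difference. The share over all pairs of the listed miRNAs was not computed. This pair is therefore not read as a difference particular to these entries. mir27c and mir24-2 lie in 1 cluster, but the miR-24 entry also holds reads of other clusters. miR-27b against miR-24 gave 0.902 (0.796 to 1.02), and miR-27a against miR-24 gave 0.842 (0.641 to 1.10). By name the last pair shares no cluster, since mir27a lies beside mir24b and the miR-24 entry joins the other 4 genes. Reads of mir24b could still have been counted in that entry, as the annotation allowed 2 mismatches. miR-24 against miR-23a gave 1.24 (0.885 to 1.75). The miR-27 entries of different clusters were not told apart from one another in FC at this depth.

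miR-27d was the exception among the 8 entries, as it had no ratio. It was listed at 15.65 rpm in the MO-Ct library, from 18 reads, and at 0 rpm in the MO-Tbx5 library. Of the 173 miRNAs, 11 were listed at 0 in the MO-Tbx5 library, which is 6.36%, and 0 in the MO-Ct library. The lowest value above 0 in the MO-Tbx5 library was 11 reads, or 18.96 rpm. The authors kept sequences with at least 30 occurrences, a minimum that the recovered 11 and 18 reads do not reach. At what count a miRNA was left out there is therefore not known. At its MO-Ct level miR-27d would have had 9.08 reads in the shallower MO-Tbx5 library, which is under those 11 reads. Of the 9 miRNAs at or below the level of miR-27d in the MO-Ct library, 6 were at 0 in the MO-Tbx5 library and 3 were not. Not all of the 11 were of so low a level, as 5 of them would have had more than 11 reads at their MO-Ct level, up to 29.8 reads. For miR-27d, whose 9.08 reads lie under the lowest listed value, the 0 was not read as a lower level, and no fold was formed.

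In the annotation mir27d is the neighbour of mir23b. miR-23b had 12.9 times the level of miR-27d in the MO-Ct library (7.98 to 22.1), whereas over the families miR-27 stood above miR-23. The reads of miR-23b may come from either of its genes, so this ratio does not belong to 1 cluster.

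The FC of the 3 families was set beside other miRNAs of the vessel wall and of striated muscle. The vessel list held miR-126, which marks endothelium, miR-143 and miR-145, which are known from smooth muscle, and miR-221 and miR-222, known from vessels. Of its 6 entries 0 were past 1.8-fold, beside 11.7% of all miRNAs with a ratio. With 6 entries a count of 0 is near that share and does not set the list apart. Their median log2 FC was -0.06. The endothelial miR-126 was the lowest of the list among its well measured entries, at 634 rpm in the hts morphants and 716 rpm in the MO-Ct injected embryos. This was a FC of 0.886 (0.782 to 1.00). miR-143 was the highest, with 2504 and 2329 rpm and a FC of 1.07 (1.01 to 1.15). The FC of the 6 vessel entries ran from 0.832 to 1.07, and that of the 7 entries of the 3 families from 0.832 to 1.18. Whether the amount of endothelium had a part in these values was not tested.

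The striated muscle list held miR-1, miR-133, miR-206 and miR-499, which are made in heart or skeletal muscle. Of its 6 entries 0 were past 1.8-fold, again near the 11.7% of all miRNAs with a ratio for so few entries. Their median log2 FC was -0.08. miR-133b had the lowest FC, 0.640 (0.538 to 0.757), from 314 rpm in the hts morphants and 490.4 rpm in the controls. miR-206 had the highest, 1.08 (1.07 to 1.09). The lowest FC of the muscle list was thus below that of the 7 entries of the 3 families, which was that of miR-27c. This rested on miR-133b alone, as the next lowest of the muscle list was miR-499 at 0.863. Summed over its letters, miR-133 had 2338 rpm in the hts morphants and 2554 rpm in the controls. A difference between the lists was not tested.

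**Figure D4:**
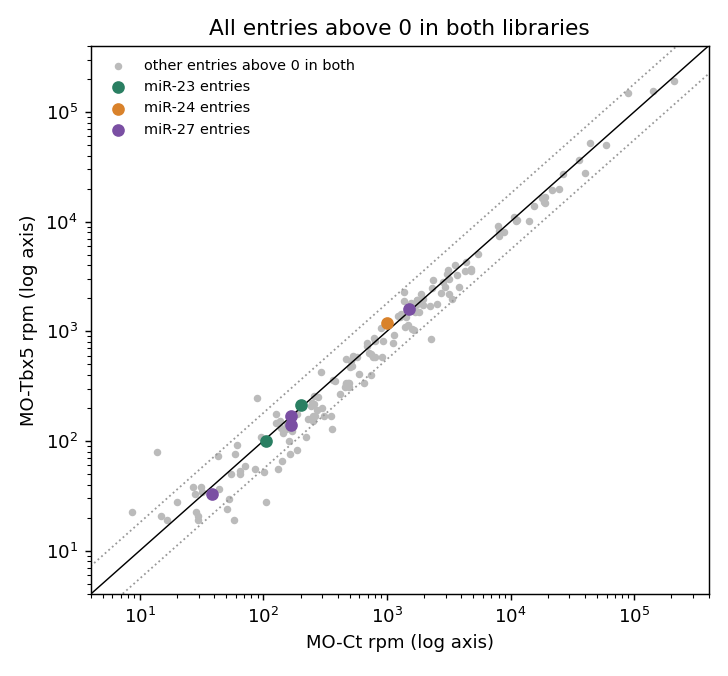
rpm in the MO-Tbx5 library against rpm in the MO-Ct library, on log axes, for the 162 miRNAs above 0 in both, with the 7 entries of the 3 families coloured by family. The solid line marks equal rpm and the dotted lines 1.8-fold, and the 7 coloured points lie between the dotted lines, from miR-27e at 38.3 rpm up to miR-27b at 1517 rpm in the MO-Ct library.

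By level over the 2 libraries, the miRNA outside the 3 families nearest to miR-27b was miR-92b, at 1830.1 rpm in the hts morphants and 1569 rpm in the controls, a distance of 0.19 on the log2 rpm scale. The nearest to miR-24 was miR-128, at 1065 and 902 rpm, a distance of 0.22. Its FC was 1.18 (1.07 to 1.30), like that of miR-24, and miR-92b had a FC of 1.17 (1.08 to 1.26). Neighbours were chosen by level in both libraries, so a similar FC follows in part from the choice. The nearest to miR-23b was miR-499, at 209 and 242 rpm, a distance of 0.26, with a FC of 0.863 (0.691 to 1.07). Likeness of level over 2 libraries says nothing of shared control.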

How the data were processed

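Small RNAs of 18 to 33 nt were cloned by the authors from 1 µg of total RNA per library with 13 PCR cycles. By the supplementary methods the authors removed low quality reads, trimmed the adaptor, kept sequences with at least 30 occurrences and annotated them to miRBase with up to 2 mismatches and 2 extra bases at each end. The values were deposited as rpm by the authors, 1 value per miRNA and library, named by hairpin, so that the arm of a hairpin was not told. 

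Reads were recovered as the smallest total from 50000 to 3000000 for which all 173 values of a library were whole reads within the rounding of 0.005 rpm and summed to the total. PCR copies are not independent molecules. The FC carries no pseudocount. For the 95% interval of a FC, the MO-Tbx5 share of a miRNA's reads was given its Clopper-Pearson bounds, and for that of a ratio of FC the exact conditional odds ratio was used. Steps were tested on simulated data. No count model was fitted, as each condition has 1 library. Names and neighbours came from RefSeq (GRCz12tu); no coordinates are given, since the files name no build.

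Members, lists and thresholds were chosen with earlier results of these data known. All 8 entries were to be named, with the nearest miRNA in level for the highest entry of each family and, from the 2 comparison lists, the highest and lowest FC among entries above 200 rpm in both libraries. Alternatives were a pseudocount of 1 or 10 rpm, division by the median FC of miRNAs above 200 rpm, division by a trimmed mean log ratio (30% of ratios and 5% of levels trimmed at each end), rpm without the 3 most abundant miRNAs, a minimum of 200 rpm, a FC of 1.5 or 2, letters summed, and the highest entry of each family alone. The tools were SciPy 1.17.1, pandas 2.3.3, Matplotlib 3.10.9, NumPy 2.4.6 and Python 3.11.15.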

Additional observations from a re-analysis of the deposited data

How the results depend on the processing

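No paired analysis was possible because the hts morphants and the controls gave 1 library each, and none could be left out. Of 72 alternatives run, 54 were counted as unchanged, within the counting interval (for counts, within 1.5 times), and 18 as moved outside it. The median log2 FC has no counting interval and was counted as unchanged, although its sign changed in the settings named below. There were 0 reversals of an entry whose interval excluded 1. Among the entries only miR-24 had such an interval. Division by a factor below 1 can only raise its FC, so the absence of reversals says little. The count of entries past 1.8-fold was 0 under each scaling, with 200 rpm in both libraries, with letters summed and with a FC of 1.5 or 2. It became 1 with a pseudocount of 1 or 10 rpm, because miR-27d, listed at 0, then gets a ratio. The summed FC of miR-27 was 1.12 after division by the median FC, 1.15 after division by the trimmed mean, and 1.13 once the 3 top miRNAs were dropped. That of miR-24 was 1.32 with the trimmed mean and 1.30 once these 3 were dropped, since these settings divide each FC by 0.910, 0.888 or 0.907. The median log2 FC of the entries changed from -0.01 to 0.12, 0.16 and 0.13 under the same 3 scalings, to 0.09 with the 200 rpm minimum and to 0.03 with letters summed. With the highest entry of each family alone, which drops reads of miR-23 and miR-27 by construction, miR-23 took 7.10% of the reads in the MO-Tbx5 library and 7.40% in the MO-Ct library, miR-24 took 39.3% and 36.9%, and miR-27 took 53.6% and 55.7%. The FC of miR-27c and miR-27e stayed below 1 in these settings, at most 0.936 and 0.963. Depth limited the entries under 200 rpm most, 19 and 44 reads standing behind miR-27e.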
